A study of Arabidopsis thaliana with 4 samples.

Results

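The 41 nuclear light-harvesting and photosystem genes of Arabidopsis thaliana were taken by locus: 20 antenna genes (LHCA1 to LHCA6, LHCB1.1 to LHCB1.5, LHCB2.1 to LHCB2.3, LHCB3, LHCB4.1 to LHCB4.3, LHCB5 and LHCB6), 12 photosystem I subunit genes and 9 photosystem II subunit genes. All 41 were found among the 33558 loci of the deposited table, and all 41 passed the filter on low values that 20111 loci passed. RNA had been sequenced from shoots of 7-day-old seedlings grown at 22 °C on MS agar without sucrose. The white light was continuous, its ratio of red to far-red (R:FR) was 1.2 and its fluence rate 30 to 50 µE per square metre and second. The wild type Col-0 was kept either 7 d under white light or 3 d under white light and then 96 h under low R:FR, and a line labelled hfr1-4pil1-2 went through the same 2 regimes, which made 4 groups. That line carries mutations of both HFR1 and PIL1 by its label, so the mutations cannot be told apart. A 1 h treatment was not analysed here.

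For low R:FR, LEDs gave 13 µE red, 20 µE far-red and 1.23 µE blue, so the amount and colour of the light changed together with the ratio and cannot be told apart. The labels list 1 sample per group, but the values of each Col-0 column resolved into 2 libraries, so that 6 libraries were compared. Nothing says that the 2 Col-0 libraries came from separate cultures, and p-values therefore measure a spread that may be technical. The hfr1-4pil1-2 groups have 1 library each, which the tests assume to vary like Col-0. The transcripts of the targeted genes do not check the genotype: HFR1 had 27.9 and 2203 normalized counts in Col-0 (white light, low R:FR) and 189 and 2112 in the libraries labelled hfr1-4pil1-2, and PIL1 had 16.5 and 277 against 220 and 1574. Every direction given for the mutant therefore rests on its label.

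Chlorophyll a/b-binding proteins of the LHC family gather light for the photosystems. LHCB1, LHCB2 and LHCB3 form the trimers of the mobile and bound antenna of photosystem II, LHCB4, LHCB5 and LHCB6 are its monomeric linkers (CP29, CP26 and CP24), and LHCA proteins form the belt around photosystem I. Vegetation absorbs red and passes far-red light, so a low R:FR signals neighbours. It inactivates phytochrome B and frees PIF transcription factors, while HFR1 and PIL1 are related basic helix-loop-helix proteins, of which HFR1 is known to bind PIFs and hold them back. The subunits described here are encoded in the nucleus, and transcription of such genes is known to follow light and the GLK factors.

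Both ends of the response in Col-0 lay in the antenna, and the upstream sequences of 3 genes there are shown for that reason: LHCB4.3 and LHCB2.3, which fell most in Col-0, and LHCB1.5, which had the highest ratio there. Each stretch is the 250 bases before the annotated gene start, 5′ to 3′ on the gene's strand, from RefSeq's TAIR10.1 assembly. LHCB4.3 (AT2G40100) lies on the plus strand with its window at chr2:16745378-16745627, LHCB2.3 (AT3G27690) on the plus strand with its window at chr3:10255656-10255905, and LHCB1.5 (AT2G34420) on the minus strand with its window at chr2:14523569-14523818. Capitals mark a G-box (CACGTG) or the motif CCAATC, which GLK factors are known to bind, on either strand.
LHCB4.3: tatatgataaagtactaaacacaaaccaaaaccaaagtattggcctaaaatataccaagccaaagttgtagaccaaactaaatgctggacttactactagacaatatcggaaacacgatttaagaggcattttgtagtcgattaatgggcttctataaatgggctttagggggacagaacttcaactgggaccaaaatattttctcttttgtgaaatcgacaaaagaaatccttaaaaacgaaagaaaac
LHCB2.3: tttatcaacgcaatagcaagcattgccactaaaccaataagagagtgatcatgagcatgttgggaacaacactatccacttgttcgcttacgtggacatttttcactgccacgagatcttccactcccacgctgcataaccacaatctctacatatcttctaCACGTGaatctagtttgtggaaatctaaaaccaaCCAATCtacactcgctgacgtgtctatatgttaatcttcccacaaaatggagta
LHCB1.5: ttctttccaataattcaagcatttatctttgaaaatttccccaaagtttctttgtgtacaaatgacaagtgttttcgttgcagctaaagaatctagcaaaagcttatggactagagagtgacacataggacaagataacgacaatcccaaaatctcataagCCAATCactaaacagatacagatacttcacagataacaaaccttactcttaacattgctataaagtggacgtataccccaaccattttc
In LHCB2.3 the G-box began 88 bases and CCAATC 54 bases before the gene start, in LHCB1.5 CCAATC began 89 bases before it, and the LHCB4.3 window held neither set of letters.

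Over all members, CCAATC stood in the 250-base windows of 10 of 20 antenna genes, 0 of 12 photosystem I genes and 1 of 9 photosystem II genes, against 10.2% of the windows of 27443 nuclear protein-coding genes. CACGTG stood in 8 of 41 members, or 19.5%, against 6.49% of all windows, and the I-box GATAAG, a motif known from light-regulated promoters, in 9 of 41, or 22.0%, against 12.3%. All 3 motifs were searched on both strands, and matches of 2 motifs may share end bases. A match describes the window and is not a binding site, and a window without a match says only that these letters were not in it.

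The antenna also holds close copies with unlike values, and these are shown because the results below turn on them. LHCB1.4 (AT2G34430) and LHCB1.5 lie head to head on chromosome 2, with 1038 bases between their gene starts, and their coding sequences were identical at 92.5% of aligned bases. Capitals mark bases that differ from the other copy in the alignment or have no partner there. The stretches are the first 120 coding bases, at chr2:14524818-14524937 on the plus strand for LHCB1.4 and at chr2:14523394-14523513 on the minus strand for LHCB1.5.
LHCB1.4: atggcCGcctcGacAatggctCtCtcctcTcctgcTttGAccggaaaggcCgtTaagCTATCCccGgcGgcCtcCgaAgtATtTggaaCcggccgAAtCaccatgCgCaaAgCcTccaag
LHCB1.5: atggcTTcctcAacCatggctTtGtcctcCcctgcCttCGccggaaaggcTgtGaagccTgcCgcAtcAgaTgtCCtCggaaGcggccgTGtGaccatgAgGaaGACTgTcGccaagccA
The 5 LHCB1 genes have 1 coding exon each. Of their 50-base windows, 10.6% (LHCB1.2) to 20.5% (LHCB1.1) also occurred in another gene, for LHCB1.4 13.7% and for LHCB1.5 17.3%. Of the other members only LHCB2.1 (20.2%), LHCB2.2 (28.2%) and LHCA2 (8.76%, shared with the locus AT5G28450) had such windows, so that reads could be split between copies there. How the authors treated such reads is not given in the sources used here.

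LHCB4.3 is set apart from the other CP29 copies by its coding end. The last 150 coding bases of LHCB4.1 (chr5:210094-210243, plus strand) and LHCB4.2 (chr3:2718516-2718665, plus strand) align with the last 108 of LHCB4.3 (chr2:16747083-16747190, plus strand). Capitals mark bases that differ from LHCB4.1 or have no partner there.
LHCB4.1: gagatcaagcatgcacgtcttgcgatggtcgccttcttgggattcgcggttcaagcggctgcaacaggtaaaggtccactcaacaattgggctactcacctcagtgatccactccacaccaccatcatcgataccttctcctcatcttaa
LHCB4.2: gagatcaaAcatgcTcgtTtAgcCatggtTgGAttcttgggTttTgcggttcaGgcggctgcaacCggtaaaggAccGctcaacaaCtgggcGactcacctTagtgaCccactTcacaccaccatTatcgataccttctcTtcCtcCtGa
LHCB4.3: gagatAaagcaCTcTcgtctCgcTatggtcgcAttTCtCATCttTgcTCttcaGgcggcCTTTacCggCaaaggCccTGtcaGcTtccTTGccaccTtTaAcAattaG
Over the whole coding sequence LHCB4.1 and LHCB4.2 were identical at 81.9% of aligned bases, while LHCB4.3 was identical to them at 70.2% and 71.6%. None of the 3 shared an exact 50-base window with another gene. Whether shorter reads or reads with mismatches could cross between them was not tested.

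Values are the authors' normalized counts, which are read counts divided by 1 size factor per library. In Col-0 in white light the level per kb of exonic length ran from 1024 for LHCB4.3 to 54201 for LHCB1.3. PSBR (41561), PSAO (26241), LHCB1.5 (25889) and LHCB5 (25340) came next after LHCB1.3. LHCA5, LHCA6 and LHCB4.3 were the 3 lowest members in every group but hfr1-4pil1-2 low R:FR, where LHCB2.3 took the place of LHCA5. The class medians per kb in Col-0 white light were 12829 (antenna), 12649 (photosystem I) and 17370 (photosystem II). In Col-0 low R:FR they were 12377, 9127 and 10089.

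Levels between libraries are plotted below for all members.

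**Figure D1:**
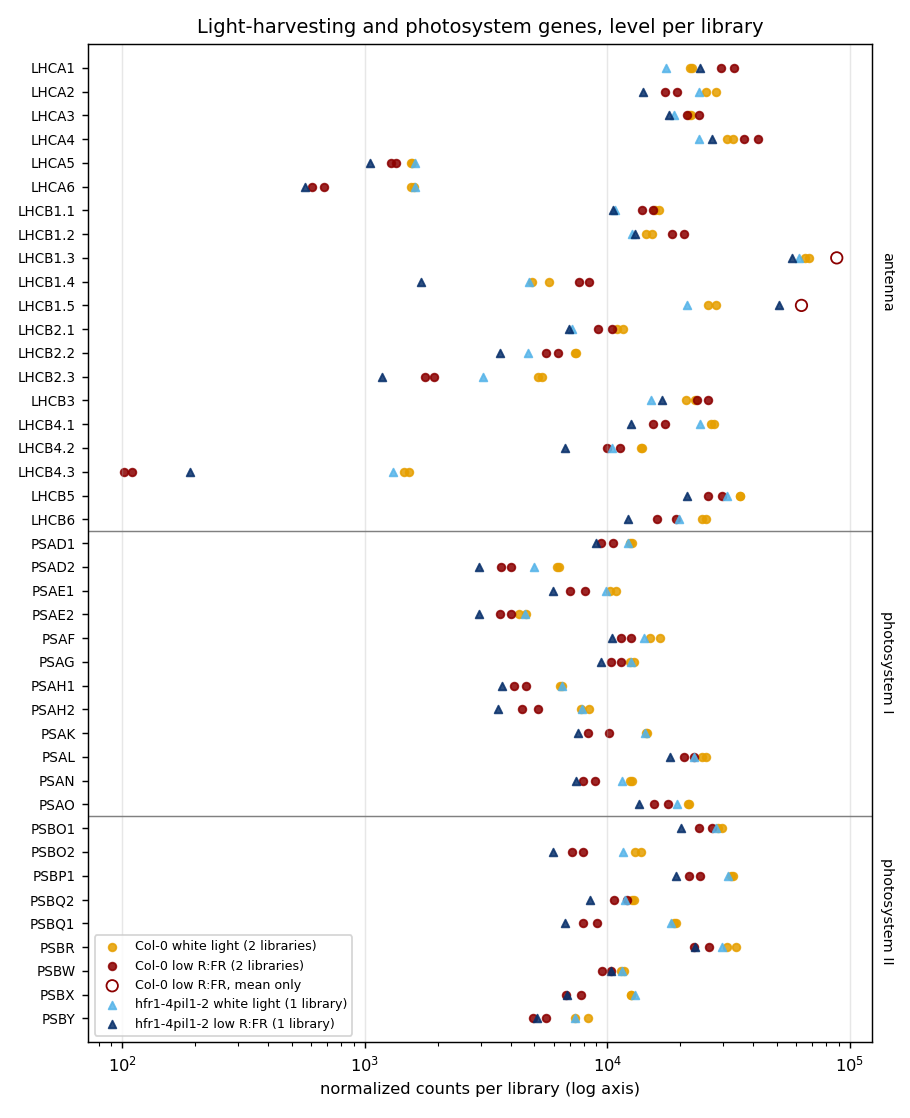
Each row is a gene and each point the normalized count of 1 library on a log axis (circles Col-0, triangles hfr1-4pil1-2), grouped as antenna, photosystem I and photosystem II; an open circle is a mean whose libraries could not be told apart. LHCB4.3 shows the widest gap between lights, and the low R:FR library labelled hfr1-4pil1-2 lies far left of the rest for LHCB1.4.

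In Col-0, the comparison of low R:FR with white light asks how transcript levels of the photosynthetic apparatus differ after 96 h of simulated shade. Of the 39 members that could be tested, 4 rose and 30 fell by edgeR's quasi-likelihood test (Benjamini-Hochberg adjusted p under 0.05 over 20101 genes). The rises were all antenna genes (LHCA1, LHCA4, LHCB1.2 and LHCB1.4), and falls took 11 of 18 antenna, 12 of 12 photosystem I and 7 of 9 photosystem II genes. Across all tested genes, 23.0% rose and 25.4% fell. LHCA3, LHCB1.1, LHCB3, PSBO1 and PSBQ2 did not pass the test, and LHCB1.3 and LHCB1.5 stood outside it because their libraries could not be told apart.

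The median log2 ratio (low R:FR over white light, with a pseudocount of 10.8 on both) was -0.22 for the antenna, -0.44 for photosystem I and -0.51 for photosystem II, against -0.02 for all genes that passed the filter. Both low R:FR libraries were below both white light libraries in 33 of 39 members, against 39.0% of all tested genes, and above them in 5, against 35.6%. DESeq2 called 28 of the 34. By size, 1 member was at least 2-fold higher (LHCB1.5) and 4 at least 2-fold lower (LHCB4.3, LHCB2.3, LHCA6 and PSBQ1), where 4.79% and 2.79% of all genes were. In these bulk samples, fewer cells of a type and less RNA per cell cannot be told apart. When every column was scaled to 1 total, the log2 ratios of the members moved up by 0.13, the all-gene median moved to 0.10, and LHCB1.1, which was not called, changed sign.

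LHCB4.3, a CP29 copy also known as LHCB8, fell most. Its 2 Col-0 libraries from white light had 1516 and 1450 normalized counts and those from low R:FR 101 and 110, which rest on 165 and 140 reads. In the libraries labelled hfr1-4pil1-2 it had 1300 under white light and 191 under low R:FR. In Col-0 both low R:FR libraries lay below both white light libraries, an order that 39.0% of all tested genes had. With 1 hfr1-4pil1-2 library per light, overlap could not be judged in that line. The ratio in Col-0 was 12.8-fold lower, with an edgeR log2 change of -3.82 ± 0.08 (SE, n = 2 libraries per group, Benjamini-Hochberg adjusted p = 9.5e-12). The other CP29 copies also fell, LHCB4.1 by 0.73 and LHCB4.2 by 0.38 on the log2 scale, so that LHCB4.3 made up 3.50% of LHCB4 counts in Col-0 white light and 0.390% in low R:FR.

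LHCB2.3, a copy of the trimer protein LHCB2, had 5182 and 5383 counts in Col-0 white light and 1776 and 1927 in low R:FR. Its libraries labelled hfr1-4pil1-2 had 3070 and 1172. Low R:FR was the lower light in both genotypes, and the edgeR log2 change in Col-0 was -1.51 ± 0.07 (SE, n = 2 libraries per group, Benjamini-Hochberg adjusted p = 2.1e-09). The log2 changes of the other copies in Col-0 were -0.21 for LHCB2.1 and -0.32 for LHCB2.2, and LHCB2.3 made up 22.1% of LHCB2 counts under white light and 10.6% under low R:FR.

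LHCA6, a minor protein that links photosystem I to the NDH complex, had 1594 and 1549 counts in Col-0 white light and 602 and 678 in low R:FR. The libraries labelled hfr1-4pil1-2 had 1608 and 568. LHCA6 was called between genotypes in neither light, and the change in Col-0 was -1.30 ± 0.07 on the log2 scale (SE, edgeR, n = 2 libraries per group, Benjamini-Hochberg adjusted p = 1.5e-08). LHCA5, which shares that linking role, fell by 0.25 in Col-0 by edgeR but was not called by DESeq2 (Benjamini-Hochberg adjusted p = 0.11).

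Among the genes that rose in Col-0, LHCA1 and LHCA4, whose proteins pair in the photosystem I belt, had 22289 and 21960 against 29375 and 33312 counts, and 32932 and 31204 against 36721 and 41781 counts. LHCA1 rose by 0.50 ± 0.08 (SE) and LHCA4 by 0.29 ± 0.08 on the log2 scale, with edgeR Benjamini-Hochberg adjusted p of 0.00017 and 0.011. LHCA4 was lost when either of 2 single libraries was left out, LHCA1 in no such fit. The other partner pair is LHCA2 and LHCA3. LHCA2 fell by 0.54 ± 0.08 and LHCA3 had a change of 0.05 ± 0.08.

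The LHCB1 genes encode the most abundant trimer protein, and 2 of the 3 that could be tested rose in Col-0 (LHCB1.2 and LHCB1.4). LHCB1.2 had 15239 and 14397 counts under white light and 18400 and 20753 under low R:FR, and rose by 0.40 ± 0.08 on the log2 scale (SE, edgeR, n = 2 libraries per group, Benjamini-Hochberg adjusted p = 0.00087). LHCB1.4 had 4869 and 5757 under white light and 7596 and 8383 under low R:FR, and rose by 0.59 ± 0.08 (edgeR, Benjamini-Hochberg adjusted p = 7.2e-05). LHCB1.1 had 16292 and 15687 against 13898 and 15376, where every low R:FR value was below every white light value by less than the test could call (-0.13 ± 0.07).

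LHCB1.3 and LHCB1.5 had 2 possible pairs of library values each in Col-0 low R:FR. LHCB1.5 had 26026 and 28082 counts under white light and a mean of 63083 under low R:FR. Its log2 ratio was 1.22, and edgeR called it under either pair (Benjamini-Hochberg adjusted p = 2.0e-07 and 2.8e-07). LHCB1.3, the highest member, had 65254 and 68080 counts and a mean of 88186, with a log2 ratio of 0.40 (edgeR, Benjamini-Hochberg adjusted p = 0.0019 and 0.0017). Summed over LHCB1, the share of all counts was 1.14% under white light and 1.85% under low R:FR.

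Among the remaining antenna proteins, LHCB3, the trimer protein bound near the linkers, had 22896 and 21027 against 23327 and 26088 counts, with a change of 0.17 ± 0.08 that was not called. LHCB5 (CP26) and LHCB6 (CP24) fell by 0.34 ± 0.08 and 0.51 ± 0.09 on the log2 scale. The calls for LHCB2.1 and LHCB5 were lost when a library was left out.

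All 12 photosystem I genes fell in Col-0, by 0.21 (PSAL) to 0.75 (PSAH2) on the log2 scale. None rose, also at an unadjusted p under 0.05 and by DESeq2, which called 9 of the 12 lower. PSAH2, which with PSAL and PSAO forms the docking side for LHCII, had 8360 and 7752 counts under white light and 4437 and 5165 under low R:FR (-0.75 ± 0.08, edgeR, Benjamini-Hochberg adjusted p = 5.8e-06). PSAD2, a subunit of the ferredoxin docking ridge, had 6216 and 6321 against 3637 and 3988 (-0.72 ± 0.07). For both genes the low R:FR libraries lay below both white light libraries, as for 39.0% of all tested genes.

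Several photosystem I subunits have 2 copies, and differences between copies were not tested. PSAD1 fell by 0.33 and PSAD2 by 0.72, PSAE1 by 0.48 and PSAE2 by 0.23, and PSAH1 by 0.56 and PSAH2 by 0.75. PSAK, an outer subunit beside the LHCA belt, fell by 0.65 (14457 and 14521 against 8329 and 10144 counts), PSAG by 0.23, the plastocyanin docking subunit PSAF by 0.39, PSAN of the lumen by 0.57 and PSAO by 0.37. The calls for PSAE2, PSAG and PSAL were lost when a library was left out.

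In photosystem II, 7 of 9 genes fell in Col-0. PSBQ1, a subunit of the oxygen-evolving complex, fell most: it had 19230 and 18852 counts under white light and 7928 and 9084 under low R:FR (-1.16 ± 0.08 on the log2 scale, SE, n = 2 libraries per group, edgeR, Benjamini-Hochberg adjusted p = 8.4e-08). Its paralog PSBQ2 had 12829 and 12589 against 10594 and 12056, a change of -0.17 ± 0.08 that was not called. PSBQ1 thus made up 60.0% of PSBQ counts under white light and 42.9% under low R:FR.

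PSBO1 and PSBO2 are copies in the same complex. PSBO2 fell by 0.83 ± 0.07 (12949 and 13718 against 7129 and 7903 counts), while PSBO1 had 28664 and 29600 against 23809 and 26854 (-0.20 ± 0.08, edgeR, Benjamini-Hochberg adjusted p = 0.052). PSBP1, the third type of extrinsic subunit, fell by 0.51 ± 0.08. Of the small membrane subunits, PSBX fell by 0.78, PSBY by 0.58, PSBR by 0.42 and PSBW by 0.22 on the log2 scale, and the call for PSBW was lost when any of 3 libraries was left out.

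Changes in both genotypes are plotted beside each other below.

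**Figure D2:**
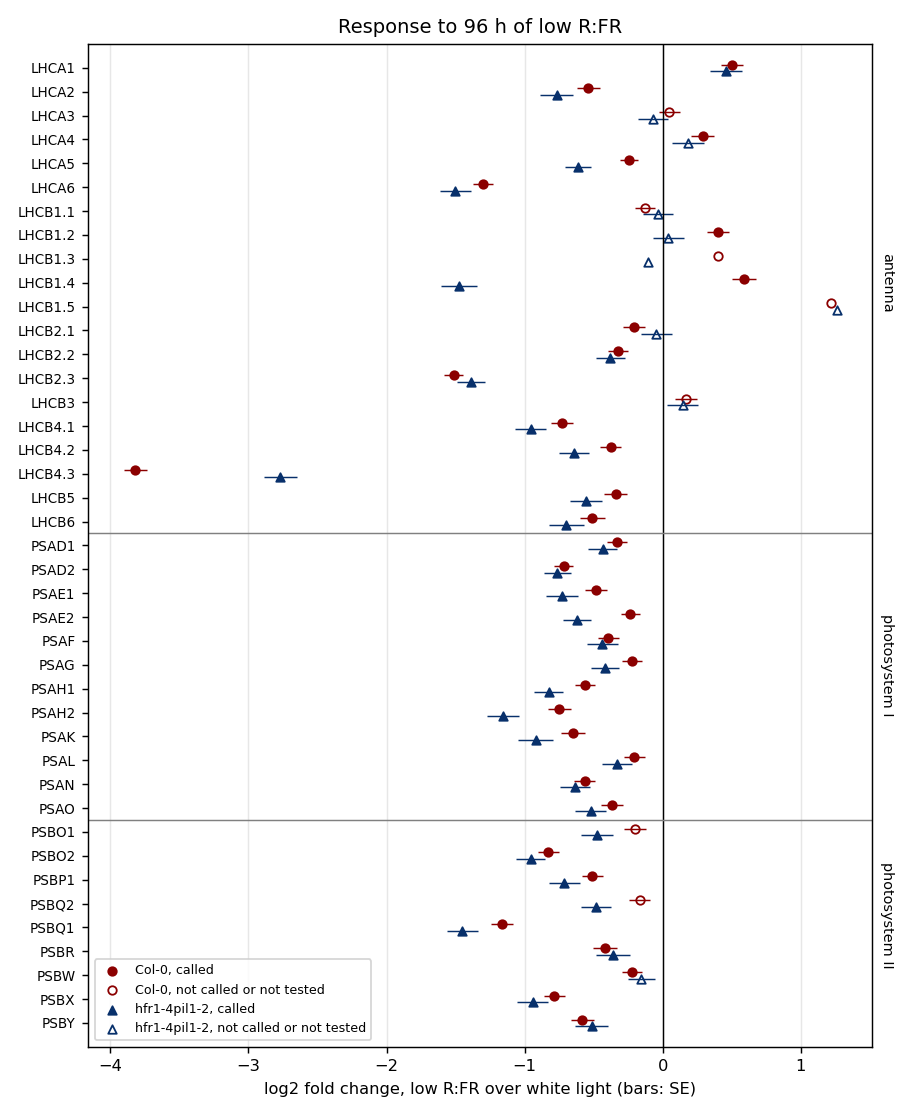
Rows are genes by class, and the horizontal axis is the log2 change, low R:FR over white light (circles Col-0, triangles hfr1-4pil1-2, bars SE, filled when edgeR called the gene); LHCB1.3 and LHCB1.5 are shown as log2 ratios without SE. Most points lie left of 0. The 8 of 41 genes right of 0 in Col-0 and the 5 of 41 in hfr1-4pil1-2 are all antenna genes. LHCB4.3 is farthest left in both genotypes, and LHCB1.4 is right of 0 in Col-0 and left of it in hfr1-4pil1-2.

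In the libraries labelled hfr1-4pil1-2, 1 of 39 members rose (LHCA1) and 31 fell, against 18.4% and 18.7% of all tested genes. Falls took 11 of 18 antenna, 12 of 12 photosystem I and 8 of 9 photosystem II genes. The median log2 ratios were -0.47, -0.63 and -0.51 in that order, against -0.01 over all genes. At least 2-fold, 1 member was higher (LHCB1.5, 1.26) and 6 were lower: LHCB4.3 (-2.70), LHCA6 (-1.48), LHCB1.4 (-1.47), PSBQ1 (-1.45), LHCB2.3 (-1.38) and PSAH2 (-1.15), where 6.48% and 4.56% of all genes were. LHCA1 had 17463 counts under white light and 23973 under low R:FR (0.46 ± 0.11, edgeR, Benjamini-Hochberg adjusted p = 0.0064).

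Of the 39 tested members, 28 fell in both genotypes, as 15.7% of all tested genes did, and 1 (LHCA1) rose in both, as 14.5% did. LHCB1.4 rose in Col-0 and fell in the line labelled hfr1-4pil1-2, as 0.0895% did. Col-0 and hfr1-4pil1-2 responses share no library. LHCB1.2 and LHCA4, which rose in Col-0, had log2 changes of 0.04 ± 0.11 and 0.18 ± 0.12 in hfr1-4pil1-2 and were not called there, and LHCB1.5 was called under either pair of library values (edgeR, Benjamini-Hochberg adjusted p = 7.0e-06 and 9.7e-06). Scaling every column to 1 total changed the sign of LHCA3, LHCB1.1, LHCB1.3 and LHCB2.1 here, none of which was called.

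Whether the response itself differed between genotypes was tested as a difference of the log2 changes, hfr1-4pil1-2 minus Col-0. Only 2 of 39 members passed: LHCB1.4 lower and LHCB4.3 higher, against 1.80% and 1.98% of all tested genes. For LHCB1.4 the difference was -2.06 ± 0.15 (SE, edgeR, Benjamini-Hochberg adjusted p = 2.5e-05): the line labelled hfr1-4pil1-2 had 4733 counts under white light and 1703 under low R:FR, beside the Col-0 values above. The library labelled hfr1-4pil1-2 in low R:FR was below all other libraries, which ran from 4733 to 8383. By the ratio of the columns it was also the only member at least 2-fold lower in the response (0.597% of all genes), and none was 2-fold higher (1.76%). For LHCB4.3 the difference was 1.05 ± 0.16 (adjusted p = 0.0041), with a fall in both genotypes that was smaller in hfr1-4pil1-2. Each difference rests on 1 hfr1-4pil1-2 library per light. Both calls held in every fit that left out 1 Col-0 library and by DESeq2, and without the first Col-0 low R:FR library 4 members were called.

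LHCB1.5, the head-to-head neighbour of LHCB1.4, had a difference of 0.04 and was not called under either pair. Its counts of 21191 under white light and 50776 under low R:FR labelled hfr1-4pil1-2 went the other way from LHCB1.4. Together LHCB1.4 and LHCB1.5 had log2 ratios of 1.13 in Col-0 and 1.02 in hfr1-4pil1-2, and LHCB1.4 took 16.4% and 11.2% of that sum in Col-0 (white light, low R:FR) and 18.3% and 3.25% in hfr1-4pil1-2. Shared reads between these copies were not tested as a part of that value. LHCB1.3 had a difference of -0.51 and was not called under either pair (edgeR, Benjamini-Hochberg adjusted p = 0.092 and 0.084). LHCB1.2 had -0.36 ± 0.14 and LHCB1.1 had 0.09 ± 0.13. Neither was called, though LHCB1.2 was with no filter on low values. Together LHCB1.1 to LHCB1.3 had log2 ratios of 0.33 in Col-0 and -0.08 in hfr1-4pil1-2. For the 12 photosystem I genes the differences ran from -0.41 (PSAH2) to -0.04 (PSAF), and for photosystem II from -0.32 (PSBQ2) to 0.07 (PSBW), with SEs from 0.12 to 0.15. None was called by edgeR or DESeq2, while 2 and 1 of them had an unadjusted p under 0.05. PSAH2 was called without the first Col-0 low R:FR library (edgeR, Benjamini-Hochberg adjusted p = 0.032, beside 0.15 with all) and with no filter on low values, and PSAE2 with no filter.

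Genotypes were compared within each light. In white light, 0 members were higher and 7 lower in the library labelled hfr1-4pil1-2 than in Col-0, where 0.587% and 1.93% of all tested genes were. All 7 were antenna genes: LHCA4, LHCB1.1, LHCB2.1, LHCB2.2, LHCB2.3, LHCB3 and LHCB4.2. At an unadjusted p under 0.05, 0 were higher and 14 lower, and DESeq2 called 0 and 7. No member was 2-fold apart (0.0348% of all genes were higher and 0.781% lower). Without the first Col-0 white light library 4 were called: LHCA4, LHCB3 and LHCB4.2 are the calls that were lost in some fit, and LHCB1.1 and the 3 LHCB2 genes kept theirs in every fit.

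The whole LHCB2 family was lower in white light. LHCB2.1 had 10968 and 11577 counts in Col-0 and 7165 in hfr1-4pil1-2 (-0.65 ± 0.10). LHCB2.2 had 7371 and 7432 against 4686 (-0.66 ± 0.09), and LHCB2.3 5182 and 5383 against 3070 (-0.78 ± 0.08, edgeR, Benjamini-Hochberg adjusted p = 0.00060). The hfr1-4pil1-2 library was below both Col-0 libraries for each of them, and how many of all genes had this order was not counted. It does not set LHCB2 apart, because PSAL (22789 against 24550 and 25512) and PSAO (19371 against 21402 and 21582) had it without being called. PSBX did not have it (13044 against 12560 and 12453). LHCB1.1 had 16292 and 15687 against 10734 (-0.57 ± 0.09). The median log2 ratio of the antenna was -0.29, beside -0.07 for photosystem I and -0.06 for photosystem II, and -0.0037 for all genes.

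Photosystem I and II had 0 called of 12 and 0 of 9 in white light, by edgeR and by DESeq2. At an unadjusted p under 0.05 there was 1 lower gene in each. PSAD2 was called lower with no filter on low values and when either Col-0 low R:FR library was left out, with edgeR Benjamini-Hochberg adjusted p from 0.034 to 0.20 when 1 Col-0 library was left out (0.065 with all). Their edgeR log2 differences ran from -0.33 ± 0.08 (PSAD2) to 0.06 ± 0.09 (PSBX), so a missed call does not show equal levels.

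In low R:FR, 1 member was higher (LHCB4.3) and 13 were lower in hfr1-4pil1-2 than in Col-0, where 0.995% and 1.44% of all tested genes were. The 13 were 10 antenna genes (LHCA4, LHCB1.1, LHCB1.2, LHCB1.4, LHCB2.1, LHCB2.2, LHCB2.3, LHCB3, LHCB4.2 and LHCB6), PSAD2, PSAH2 and PSBQ2. All 7 genes lower in white light were among them, and 0.144% of all tested genes were lower in both lights. LHCB1.4 was the only member over 2-fold apart, where 0.249% of all genes were higher and 0.348% lower, and it was 4.67-fold lower (-2.23 ± 0.12, edgeR, Benjamini-Hochberg adjusted p = 5.7e-07). LHCB4.3 had 101 and 110 counts in Col-0 and 191 in hfr1-4pil1-2 (0.86 ± 0.14, adjusted p = 0.0054). LHCB1.3 was called lower under either pair (log2 ratio -0.62, edgeR, Benjamini-Hochberg adjusted p = 0.0098 and 0.0086).

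Among the rest, LHCB2.2 had 5568 and 6277 counts in Col-0 low R:FR and 3605 in hfr1-4pil1-2 (-0.72 ± 0.09), and LHCB4.2 had 9966 and 11303 against 6654 (-0.68 ± 0.10). In these 2 genes, and likewise in LHCB1.2, LHCB3 and LHCA4, the hfr1-4pil1-2 library was below both Col-0 libraries. This order does not set them apart. It also stood in members that were not called, among them PSAD1 (8965 against 9407 and 10523) and PSAN (7408 against 7908 and 8918). PSBR did not have it (22997 against 22712 and 26122). The share of all genes with this order was not counted. LHCB1.2 had 18400 and 20753 against 13008 (-0.59 ± 0.10), LHCB3 23327 and 26088 against 16766 (-0.56 ± 0.10), and LHCA4 36721 and 41781 against 26983 (-0.54 ± 0.10). The medians were -0.49 (antenna), -0.28 (photosystem I) and -0.26 (photosystem II), against -0.01 for all genes. Without the first Col-0 low R:FR library they were -0.57, -0.36 and -0.33, and without the second -0.39, -0.18 and -0.18.

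The count in low R:FR depended on the Col-0 library. The second Col-0 low R:FR library was higher for the members as a group: library 1 minus library 2 had a median log2 difference of -0.17 (SD 0.04 over 39 members), beside -0.05 over the 1950 genes whose mean reached 1000 normalized counts and -0.10 over the 227 whose mean reached 5000. Without library 1, 26 members were called, and without library 2, 11. With no filter on low values 29 were called. PSAD2, PSAH2 and PSBQ2 were the calls lost in some fit.

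Differences between genotypes are plotted below for each light.

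**Figure D3:**
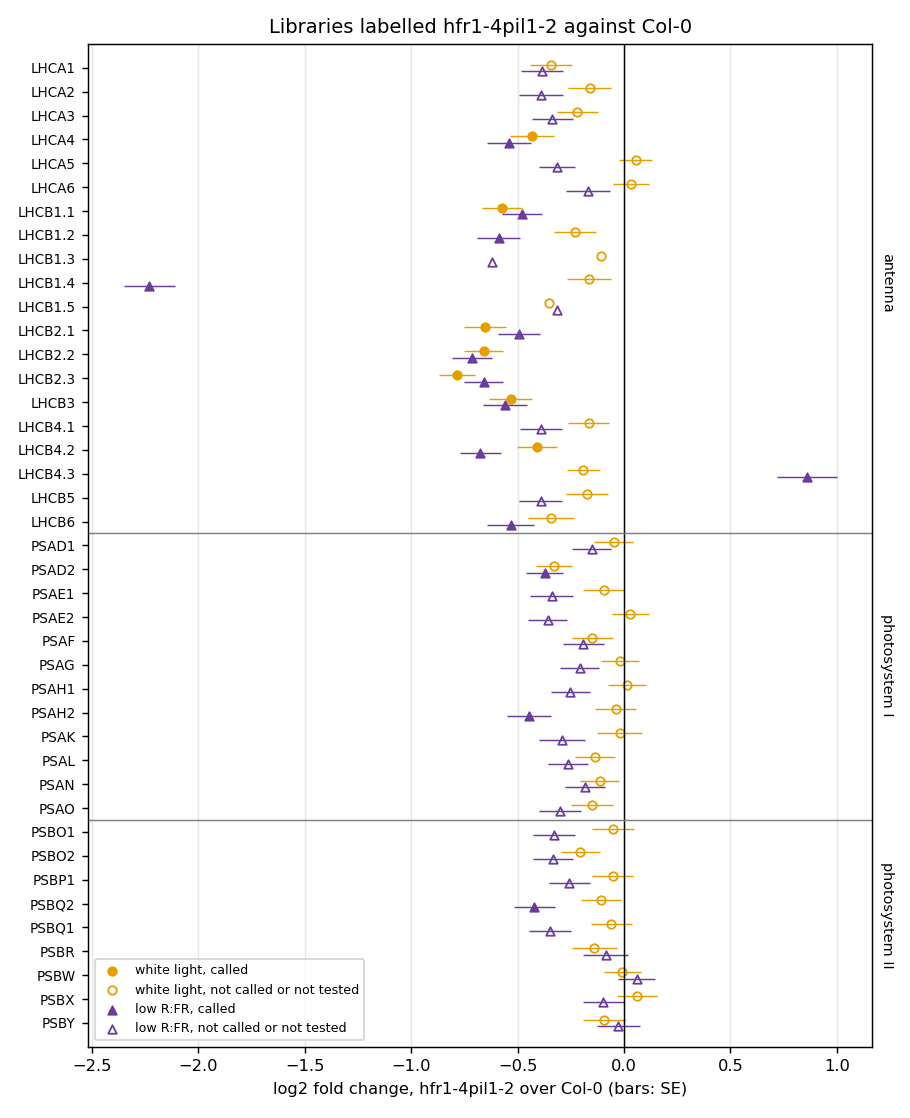
Rows are genes by class, and the horizontal axis is the log2 difference, hfr1-4pil1-2 over Col-0 (circles white light, triangles low R:FR, bars SE, filled when edgeR called the gene); LHCB1.3 and LHCB1.5 are log2 ratios without SE. Filled points in white light are all in the antenna, LHCB1.4 in low R:FR is farthest left and LHCB4.3 in low R:FR farthest right.

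By summed level, the antenna made up 3.36% of all normalized counts in Col-0 white light, 4.04% in Col-0 low R:FR, 2.79% in hfr1-4pil1-2 white light and 2.94% in hfr1-4pil1-2 low R:FR. Photosystem I made up 1.31, 1.08, 1.24 and 0.928%, and photosystem II 1.499, 1.17, 1.44 and 1.04%, in the same order. On the authors' scale the summed log2 ratio was 0.13 (Col-0) and -0.08 (hfr1-4pil1-2) for the antenna, -0.41 and -0.57 for photosystem I, and -0.48 and -0.62 for photosystem II. The antenna of hfr1-4pil1-2 is thus below 0 on that scale and above it as a share, with column totals that differed (10171547 to 11427477). The sign also turns with the scale for all 41 members together in Col-0, at -0.10 on the authors' scale and at 6.18 and 6.30% of all counts. The LHCB1 genes were at 1.14, 1.85, 0.983 and 1.31% of all counts. In Col-0, LHCB2 was at 0.210 and 0.168% and LHCB4 at 0.371 and 0.260%.

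**Figure D4:**
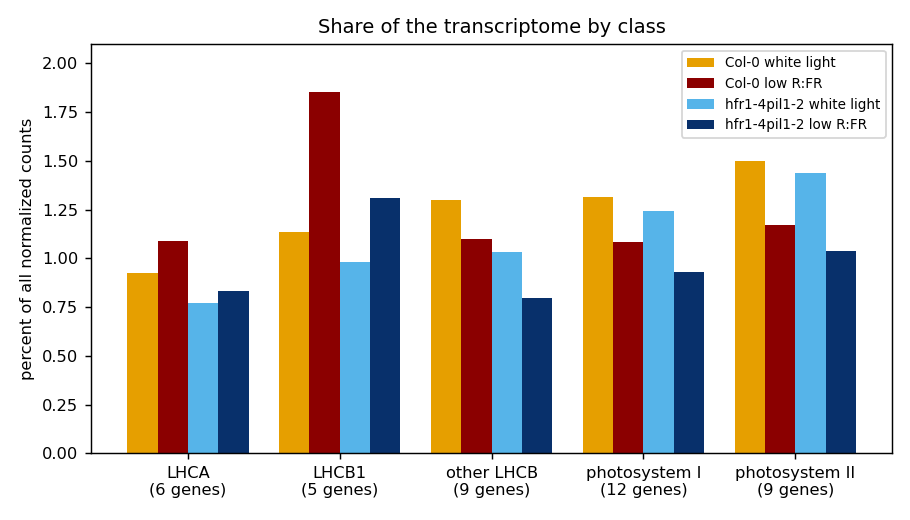
Bars from 0 give each class's share of all normalized counts in a column, in percent, for the 4 groups, with no error because the columns are single values. In Col-0, LHCB1 stands at 1.85% in low R:FR against 1.14% in white light, while photosystem I and II are lower in low R:FR in both genotypes.

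Lists of other photosynthesis genes were read beside the members. By edgeR, 25.4% of all tested genes fell in Col-0 and 18.7% in hfr1-4pil1-2, and 23.0% and 18.4% rose. In the difference of responses, 1.80% were lower and 1.98% higher. Of 16 further photosystem and antenna genes, 14 fell in Col-0 and 12 in hfr1-4pil1-2 and none rose by edgeR or DESeq2 (1 and 0 higher at an unadjusted p under 0.05). NPQ4 (PsbS, which turns on heat dissipation) fell, with log2 ratios of -0.83 and -0.78, and PSB28, a photosystem II assembly factor, with -1.13 and -1.43. Of 14 genes for electron carriers and the ATP synthase, 12 fell in each genotype. The ferredoxin gene FD1 had 4503 and 1058 normalized counts in Col-0 (white light, low R:FR) and 4889 and 1156 in hfr1-4pil1-2, with log2 ratios of -2.08 and -2.07. The other ferredoxin, FD2, had -0.60 and -0.74. The plastocyanin gene PETE1 was the only gene of that list whose response differed, by -0.93 (edgeR, Benjamini-Hochberg adjusted p = 0.0017), with 1257 counts in Col-0 low R:FR and 657 in hfr1-4pil1-2.

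Of 19 genes for antenna insertion, state transition and grana, 16 fell in Col-0 and 18 in hfr1-4pil1-2, among them CPSRP54, a subunit of the particle that delivers LHC proteins (-0.86 and -1.32), and the grana-margin gene CURT1B (-0.89 and -0.93). The state transition kinase STN7 was not called, with 1149 counts in both lights in Col-0 and a log2 ratio of 0.15 in hfr1-4pil1-2. Of 11 regulators, 1 rose in each genotype and 9 and 6 fell, beside the same shares of all tested genes as above. GLK1 and GLK2, factors that activate these genes, parted: GLK1 fell, with -0.44 in both genotypes, and GLK2 rose, with 0.32 and 0.58. In the responses, SIG5 differed by 0.75 and PTAC12 by -0.55 (edgeR, Benjamini-Hochberg adjusted p = 0.028 and 0.027). PPL1, CPSRP54 and PYG7 were the other list genes whose response differed, by -0.49, -0.46 and -0.51, and DESeq2 called none of these 5.

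**Figure D5:**
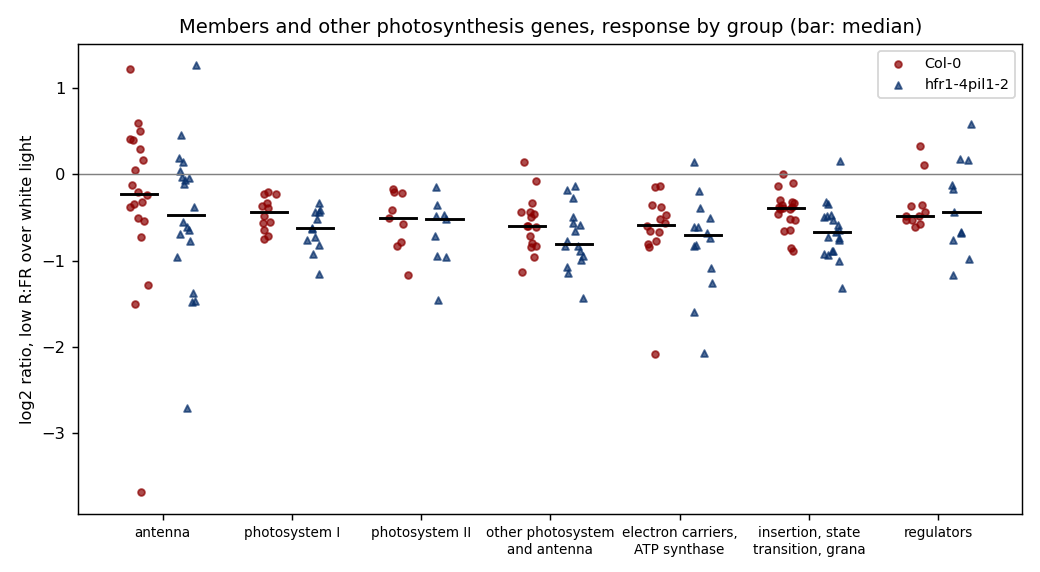
Each point is a gene's log2 ratio, low R:FR over white light (circles Col-0, triangles hfr1-4pil1-2), and bars are medians of each class or list. All medians lie below 0, and the antenna has the widest spread.

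All 8 shoot markers passed the filter, and their summed level was 249735 and 136107 counts in Col-0 and 246409 and 129169 in hfr1-4pil1-2 (white light, low R:FR), with none at 0. Most of that sum was RBCS1A and RCA, which could not be tested and had 136384 and 102057 counts in Col-0 under white light and 63407 and 59206 under low R:FR. Of the other 6, CER5, LTP1 and STM rose and AS1 and TMM fell in Col-0 by edgeR. In hfr1-4pil1-2, CER5 rose and AS1 and TMM fell. Over all 8 markers, RBCS1A and RCA included, the median log2 ratio was -0.22 in Col-0 and -0.29 in hfr1-4pil1-2. Root markers were low: 10 of 10 passed, with summed levels of 1665, 2070, 1791 and 1848 counts in the 4 groups, and edgeR called 4 higher (CASP1, CASP2, ESB1 and MYB36) and 2 lower (IRT1 and NRT2.1) in Col-0, with a median log2 ratio of 0.04. In hfr1-4pil1-2 it called 5 higher (CASP1, CASP2, COBL9, ESB1 and EXP7) and 1 lower (IRT1), with a median of 0.44. Across all tested genes, edgeR called 23.0% higher and 25.4% lower in Col-0, and 18.4% and 18.7% in hfr1-4pil1-2. Of 8 seed storage markers 2 passed, with summed levels of 82.6, 51.3, 20.0 and 23.5. Their part in the results was not tested. Sizes of the libraries ran from 7358583 reads (hfr1-4pil1-2 low R:FR) to 15679957, counting only the genes whose Col-0 reads could be split.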

How the data were processed

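The labels list total RNA sequencing of 4 samples, 1 per group. The deposited table holds a normalized signal, in which the authors' read counts have been scaled with a single factor for each library, and its Col-0 columns are means per the file headers. The submitters' processing notes name Bowtie and TAIR10. Their versions, and how reads were counted and scaled, are not given. Whole reads were recovered (tolerance 0.01 reads): every hfr1-4pil1-2 value was whole, and Col-0 means were split into 2 libraries where 1 solution existed or 1 lay within 0.5 log2 between libraries. In Col-0, 24231 and 24391 loci split uniquely, 65 and 73 more within that window, and 7 and 10 stayed ambiguous (LHCB1.3 and LHCB1.5 among them). Among the members, 19 in Col-0 white light and 20 in Col-0 low R:FR split uniquely, and 22 and 19 only within that window. For the latter, the pair was chosen because its 2 values lay within 0.5 log2 of each other. Their spread between Col-0 libraries, the order of those libraries and the p-values therefore rest on that choice. Of uniquely split genes at or above 1000, 17 of 1928 and 5 of 1891 lay beyond the window. The size factors came to 1.26, 0.834, 1.63 and 1.28 for Col-0 (white light first) and 1.30 and 0.723 for hfr1-4pil1-2. Splitting and test were run on simulated data, where 0 loci were split wrongly in either Col-0 column. That simulation set the spread between libraries smaller than the window and let all libraries vary alike. It therefore checks neither the choice by the window nor the assumption that hfr1-4pil1-2 varies like Col-0.

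Genes whose mean reached 10.8 normalized counts, also the pseudocount, entered edgeR 4.0.16 (quasi-likelihood, all 6 libraries, R 4.3.3), adjusted by Benjamini-Hochberg over 20101 genes, which took a biological coefficient of variation of 0.0527 on 2 residual degrees of freedom. Each SE is the absolute log2 change divided by the square root of edgeR's F statistic. It rests on a spread moderated over all genes (10.8 prior degrees of freedom) and not on the libraries of 1 group alone. DESeq2 1.42.0, TMM factors, no filter, other scalings and pseudocounts, thinned depth and each Col-0 library left out were alternatives. Members and lists were chosen with earlier results of these data known. Of list genes, those named were called or 2-fold apart, at most 5 a list, with GLK1 and GLK2 always; STN7 and FD2 were chosen after their values were seen. Positions, lengths and sequences are RefSeq's on TAIR10.1, and 50-base windows, motifs and alignments were computed with Python 3.11.15 and Biopython 1.88.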

Additional observations from a re-analysis of the deposited data

Results flagged for a closer look

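There were 2 genes that had a response to low R:FR that differed between genotypes by the test of the difference itself. LHCB1.4 rose in Col-0 and fell in the line labelled hfr1-4pil1-2, a difference of -2.06 on the log2 scale. LHCB4.3 fell in both, less in hfr1-4pil1-2, a difference of 1.05. Both rest on 1 hfr1-4pil1-2 library per light.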

How the results depend on the processing

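Of the values recomputed under an alternative, 205 were counts of similar size or values that moved by less than the spread, 22 moved and none reversed. Counts were compared by size alone, so that a reversal could not be scored for them. For other values it was scored only where the main value exceeded that spread. Scaling every column to 1 total gave class medians of -0.094, -0.31 and -0.38 (antenna, photosystem I and photosystem II) in Col-0 and of -0.31, -0.47 and -0.36 in hfr1-4pil1-2, and scaling the nuclear genes outside the 41 gave -0.097, -0.31 and -0.38, and -0.32, -0.48 and -0.37. The first scaling moved the all-gene median from -0.02 to 0.10 in Col-0 and from -0.01 to 0.13 in hfr1-4pil1-2, and the share of genes at least 2-fold apart that were higher from 63.2% to 73.7% and from 58.7% to 71.5%. With no filter, edgeR called 29 members between genotypes in low R:FR (14 with the filter) and 5 in the difference of responses (2 with it), and the cause was not tested. With 0.5 times the pseudocount or either scaling, 2 members instead of 1 differed at least 2-fold in response. Leaving out 1 Col-0 library at a time, called members ran from 28 to 37 for the Col-0 response (34 with all), 30 to 32 for hfr1-4pil1-2 (32), 11 to 26 between genotypes in low R:FR (14), 4 to 10 in white light (7) and 2 to 4 for the difference (2), and members at least 2-fold apart in response from 1 to 2. No paired analysis was possible because each group has 1 labelled sample and the recovered Col-0 libraries carry no numbers. Both Col-0 libraries may be technical repeats, and single hfr1-4pil1-2 libraries limit every genotype comparison.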
